A study of Mus musculus with 8 samples.

Results

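The NRF2 antioxidant response was followed through 10 genes in tumors of the C26 mouse colon carcinoma line. Nfe2l2, which encodes the transcription factor NRF2, and Keap1, which encodes its inhibitor, were taken with 8 target genes (Nqo1, Hmox1, Gclc, Gclm, Srxn1, Txnrd1, Slc7a11 and G6pdx). The 10 genes were picked out by gene symbol, and all 10 were found among the 27179 genes of the expression table. RNA had been sequenced from 8 tumors, 4 in each of 2 groups. The cxC26 scr tumors were grown from cachexia-inducing C26 cells that carried Cas9 and a scrambled guide RNA. The cxC26 IL-6 KO s1 tumors were grown from cells of the same line in which Il6 had been disrupted with CRISPR/Cas9. All tumors grew subcutaneously in adult male CD2F1 mice, which have their own Il6 genes, and were collected once cachexia had developed. The KO s1 line is 1 puromycin-selected subclone. In the study's CD2F1 experiments that reached cachexia it was implanted at a higher cell number than the scr line and formed tumors more slowly. The loss of Il6 therefore cannot be told apart from the clone, the implanted dose or the age of the tumor.

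KEAP1 is a cysteine-rich adaptor that hands NRF2 to a CUL3 ubiquitin ligase, so NRF2 is made and destroyed continuously in unstressed cells. Oxidants and electrophiles modify the cysteines of KEAP1, newly made NRF2 escapes and enters the nucleus, and with a small MAF protein it binds antioxidant response elements. Its targets import cystine, make glutathione, reduce quinones, peroxides and thioredoxin, break down heme and supply NADPH. Because NRF2 is controlled mainly through protein stability, its mRNA level is not a measure of its activity.

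The antioxidant response element has the core TGACNNNGC or TGAGNNNGC, which was searched on both strands of the 250 bases before each gene start annotated by RefSeq. That start can differ from the end of the gene span given for each member, which also came from a RefSeq annotation. They differ for Slc7a11, where the window lies inside the span, and for Gclm, where it reaches past the start of the span. For Txnrd1 all windows but the most upstream lie inside the span. The AP-1 motif TGACTCA was searched in the same way and can overlap the core. RefSeq promoter sequences of GRCm38.p6 were matched by symbol for 8 of the 10 genes, in 10 windows, since Txnrd1 has more than 1 annotated start. Hmox1 and Gclc had no entry. A core was present in 6 windows, belonging to 6 genes (Nfe2l2, Gclm, Srxn1, Txnrd1, Slc7a11 and G6pdx), and 23% of 32851 mouse promoter windows of the same length contained one. The Txnrd1 core lay in a window inside the gene span (chr10:82858956-82859205), and the other Txnrd1 windows held none. TGACNNNGC alone was present in 10.2% of all windows, TGAGNNNGC in 14.4% and TGACTCA in 4.46%. Windows of the 4 genes that were called higher in the KO s1 tumors with no overlap of the groups are given 5′ to 3′ on the strand of the gene, with matched motifs in capitals.
Srxn1 (chr2:152105274-152105523, plus strand): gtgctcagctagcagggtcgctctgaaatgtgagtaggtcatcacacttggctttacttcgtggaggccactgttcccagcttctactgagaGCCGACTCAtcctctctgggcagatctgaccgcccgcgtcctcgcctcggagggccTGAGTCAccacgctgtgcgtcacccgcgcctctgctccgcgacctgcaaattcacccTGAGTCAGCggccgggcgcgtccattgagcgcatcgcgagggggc
Gclm (chr3:122245307-122245556, plus strand): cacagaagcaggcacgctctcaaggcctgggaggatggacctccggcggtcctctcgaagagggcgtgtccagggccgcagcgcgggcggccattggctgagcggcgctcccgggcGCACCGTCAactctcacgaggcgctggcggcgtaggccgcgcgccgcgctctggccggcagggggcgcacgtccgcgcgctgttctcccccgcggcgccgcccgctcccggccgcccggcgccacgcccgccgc
Slc7a11 (chr3:50443614-50443863, minus strand): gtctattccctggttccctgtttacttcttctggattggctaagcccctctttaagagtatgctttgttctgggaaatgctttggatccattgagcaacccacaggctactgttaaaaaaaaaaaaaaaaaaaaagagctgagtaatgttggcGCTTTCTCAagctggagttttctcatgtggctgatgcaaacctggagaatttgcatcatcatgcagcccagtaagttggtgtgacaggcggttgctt
Nqo1 (chr8:107403206-107403455, minus strand): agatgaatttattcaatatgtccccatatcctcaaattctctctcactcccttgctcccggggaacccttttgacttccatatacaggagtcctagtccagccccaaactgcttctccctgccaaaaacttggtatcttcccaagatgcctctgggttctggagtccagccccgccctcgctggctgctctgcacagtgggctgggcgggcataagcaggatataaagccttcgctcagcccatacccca
The Srxn1 window held 2 cores and 2 AP-1 motifs, with 1 core overlapping 1 AP-1 motif. The Gclm and Slc7a11 windows held 1 core each, and neither motif occurred in these letters of the Nqo1 window. A match is a description of the letters and not evidence of binding.

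Expression is given as log2 CPM, the log2 of a gene's reads scaled to the size of its library (CPM), as deposited. The reads recovered on genes numbered 14158989 to 17048062 a tumor, with overlapping totals in the groups. Groups were compared with limma over 13262 genes that reached 1 CPM in 4 or more tumors, all 10 members included, and a gene was called at a Benjamini-Hochberg adjusted p under 0.05. The targeted gene itself had 326 to 438 reads in the scr tumors and 56 to 86 in the KO s1 tumors. The first principal component separated the groups and held 65.1% of the variance, and KO s1 tumor 1 stood apart on the second. Among all tested genes 19.1% were called higher in the KO s1 tumors and 20.7% lower, 39.8% in all. The expression ranges of the groups did not overlap for 37.1% of genes, with the KO s1 tumors above for 17.8%.

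In the KO s1 tumors 5 of the 10 members were called higher, namely Nqo1, Slc7a11, Gclm, Gclc and Srxn1, and 0 were called lower. Among all tested genes 19.1% were called higher and 20.7% lower. Calls in either direction, 5 of 10, were near the 39.8% of all tested genes. The KO s1 tumors were entirely above the scr tumors for 5 of 10, with G6pdx in place of Gclc. This held for 17.8% of all tested genes, and 37.1% had no overlap in either direction. The median log2 fold change over the 10 genes was 0.33, beside −0.00289 over all tested genes, and 9 of 10 had a positive value. The called genes were the cystine importer, both subunits of the glutathione-making ligase, sulfiredoxin and the quinone reductase. The 2 regulators were not called, and neither were Hmox1, Txnrd1 and G6pdx.

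**Figure D1:**
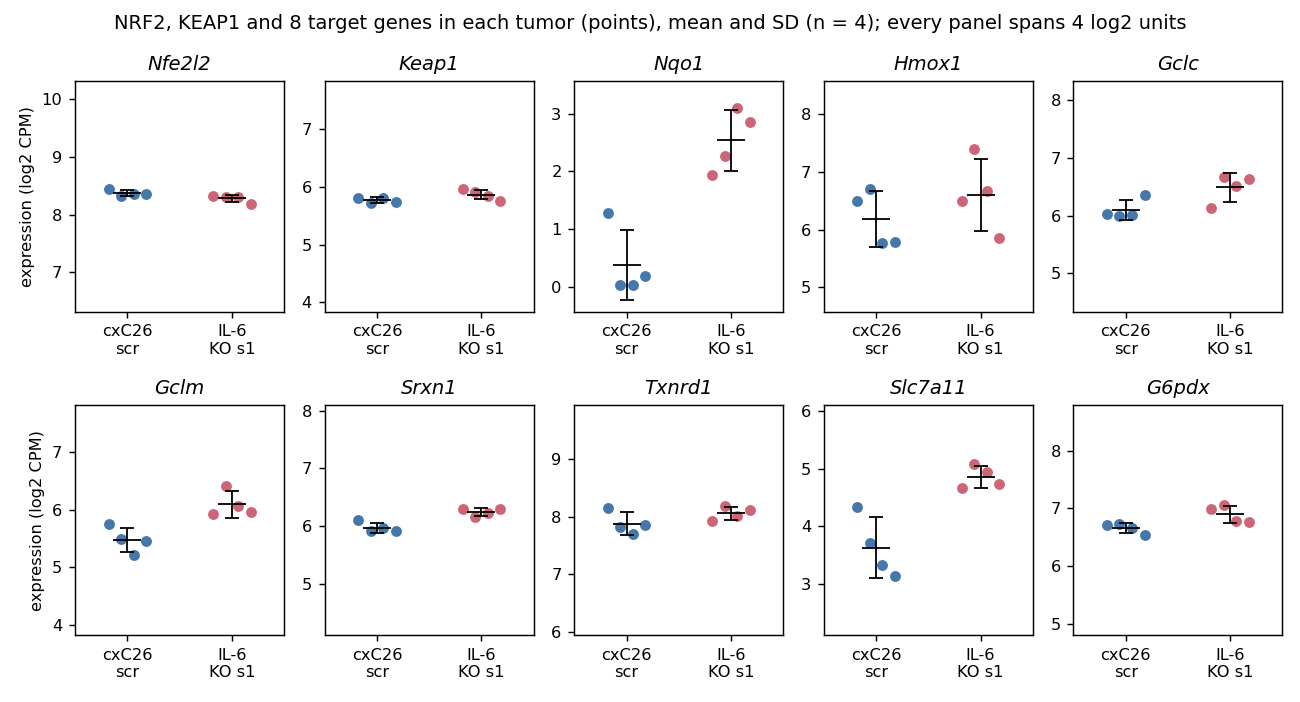
Expression of each of the 10 genes (log2 CPM, y axis) in 4 cxC26 scr tumors (blue) and 4 IL-6 KO s1 tumors (red). Points are tumors, and bars are the mean and SD. Every panel spans the same number of log2 units, so slopes can be compared by eye. Nqo1 and Slc7a11 show the widest separation, and Nfe2l2 and Keap1 lie almost level.

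The regulators were nearly level between the groups. Nfe2l2 (chr2:75675513-75704663, GRCm38, minus strand) measured 8.45, 8.32, 8.36 and 8.36 log2 CPM in scr tumors 1 to 4 and 8.33, 8.30, 8.31 and 8.18 in KO s1 tumors 1 to 4. The ranges touched, with only KO s1 tumor 1 reaching above the lowest scr tumor. The log2 fold change was −0.09 (SE 0.076, 95% interval −0.26 to 0.07, limma adjusted p = 0.353). Keap1 (chr9:21229730-21239332, minus strand) measured 5.81, 5.72, 5.81 and 5.75 in the scr tumors and 5.96, 5.91, 5.84 and 5.77 in the KO s1 tumors. KO s1 tumors 1, 2 and 3 lay above every scr tumor and KO s1 tumor 4 lay among them. Its log2 fold change was 0.10 (SE 0.080, interval −0.08 to 0.27, limma adjusted p = 0.352). The exons of Keap1 overlap the antisense gene Gm16754, and because the library kit does not mark strand, reads of the pair cannot be told apart.

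The difference between the regulators was also taken within each tumor, as log2 CPM of Nfe2l2 minus that of Keap1. It was 2.60 ± 0.04 (SD, n = 4) in the scr tumors and 2.41 ± 0.04 (SD, n = 4) in the KO s1 tumors, and the groups did not overlap. The exact permutation p was 0.0286, the smallest that 4 against 4 tumors can give, and 0.0714 after adjustment over the 5 within-tumor differences examined. Neither gene was called alone, and their difference missed the threshold after adjustment. Its unadjusted p could not have been lower, so whether the adjusted value passed depended on the other differences examined.

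Cystine import and glutathione synthesis held 3 of the 5 called members. Slc7a11 (chr3:50364936-50499087, minus strand) encodes xCT, the cystine-carrying chain of the system that exchanges glutamate for cystine. It had 336, 211, 143 and 135 reads in scr tumors 1 to 4, or 4.33, 3.71, 3.33 and 3.14 log2 CPM. The KO s1 tumors had 411, 468, 487 and 387 reads, or 4.66, 5.08, 4.95 and 4.74 log2 CPM. Every KO s1 tumor was above every scr tumor, although scr tumor 1 came close to KO s1 tumor 1. Slc7a11 was 2.35-fold higher in the KO s1 tumors (log2 fold change 1.23, SE 0.222, interval 0.74 to 1.72, limma adjusted p = 0.00122).

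Glutamate-cysteine ligase performs the rate-limiting step of glutathione synthesis, with GCLC as its catalytic and GCLM as its modifier subunit. Gclm (chr3:122245487-122267215, plus strand) measured 5.74, 5.49, 5.22 and 5.46 log2 CPM in the scr tumors and 5.92, 6.42, 6.07 and 5.96 in the KO s1 tumors, without overlap. It was 1.53-fold higher (log2 fold change 0.61, SE 0.133, interval 0.32 to 0.90, limma adjusted p = 0.00373). Gclm shares exonic bases with Gm17494 on the other strand and with the pseudogene Gm6061 on its own, so its level is uncertain to that extent. Gclc (chr9:77754535-77794489, plus strand) measured 6.02, 6.0, 6.01 and 6.36 in the scr tumors and 6.13, 6.67, 6.51 and 6.64 in the KO s1 tumors. Scr tumor 4 was above KO s1 tumor 1, so the groups overlapped. Gclc was 1.31-fold higher (log2 fold change 0.39, SE 0.129, interval 0.11 to 0.67, limma adjusted p = 0.0308).

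The Gclc call was lost when scr tumor 1, 2 or 3 or KO s1 tumor 2, 3 or 4 was left out, and kept without scr tumor 4 (limma adjusted p = 0.0176) or KO s1 tumor 1 (limma adjusted p = 0.00307). Its log2 fold change was 0.33 to 0.51 over the 8 omissions, with limma adjusted p up to 0.0814. The tested genes in the same 10 Mb window of the genome had a median log2 fold change of 0.26, and with window medians removed the value of Gclc was 0.13 (limma adjusted p = 0.470). Log2 CPM of Gclm minus Gclc within a tumor was −0.62 ± 0.28 (SD, n = 4) in the scr tumors and −0.40 ± 0.22 (SD, n = 4) in the KO s1 tumors, with exact permutation p = 0.229, so a shift in the balance of the subunits was not detected.

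Nqo1 (chr8:107388225-107403205, minus strand) had the largest fold change of the 10 genes. It encodes NAD(P)H quinone dehydrogenase, which reduces quinones without releasing semiquinones and is among the most used reporters of NRF2 activity. Its reads were few, 40, 16, 14 and 17 in scr tumors 1 to 4 and 62, 66, 135 and 104 in KO s1 tumors 1 to 4. These are 1.28, 0.028, 0.027 and 0.19 log2 CPM against 1.94, 2.26, 3.10 and 2.85. The groups did not overlap, and scr tumor 1 was far above the other scr tumors. Nqo1 was 4.47-fold higher in the KO s1 tumors (interval 2.66 to 7.52, log2 fold change 2.16, SE 0.344, limma adjusted p = 0.000575). With any 1 tumor left out the log2 fold change lay between 1.97 and 2.46 and stayed called, and Slc7a11 and Gclm also stayed called in each of these 8 omissions.

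Hmox1 (chr8:75093618-75100593, plus strand) encodes heme oxygenase 1, which cleaves heme to biliverdin, iron and carbon monoxide and responds to heme as well as to NRF2. It measured 6.50, 6.70, 5.76 and 5.78 log2 CPM in the scr tumors and 6.50, 7.39, 6.66 and 5.85 in the KO s1 tumors. The groups overlapped widely, with scr tumors 1 and 2 above KO s1 tumor 4. Its log2 fold change was 0.42 (SE 0.294, interval −0.23 to 1.06, limma adjusted p = 0.282), and this interval includes no change as well as a 2.08-fold difference. It was 0.15 (limma adjusted p = 0.672) without KO s1 tumor 2, 0.27 (limma adjusted p = 0.534) without scr tumor 3 and 0.67 (limma adjusted p = 0.069) without KO s1 tumor 4. The log2 CPM of Hmox1 minus Nqo1 within a tumor was 5.81 ± 0.62 (SD, n = 4) in the scr tumors and 4.06 ± 0.96 (SD, n = 4) in the KO s1 tumors, without overlap (exact permutation p = 0.0286, 0.0714 after adjustment over 5). On the log2(CPM + 1) scale that difference between the groups fell from −1.74 to −1.16, with exact permutation p = 0.114.

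Srxn1 (chr2:152105524-152111376, plus strand) encodes sulfiredoxin, which repairs hyperoxidized peroxiredoxins. It measured 6.10, 5.92, 5.96 and 5.91 log2 CPM in the scr tumors and 6.30, 6.16, 6.22 and 6.30 in the KO s1 tumors. The groups did not overlap, and the spread within each was narrow. Srxn1 was 1.21-fold higher (log2 fold change 0.27, SE 0.080, interval 0.10 to 0.45, limma adjusted p = 0.0185). The call was lost without scr tumor 4 (log2 fold change 0.25, limma adjusted p = 0.0577). Its 10 Mb window had a median of −0.19, and with window medians removed its value was 0.47 (limma adjusted p = 0.00113).

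Txnrd1 (chr10:82833951-82897724, plus strand) encodes the cytosolic selenoprotein that keeps thioredoxin reduced. It measured 8.15, 7.81, 7.69 and 7.86 log2 CPM in the scr tumors and 7.92, 8.19, 8.0 and 8.12 in the KO s1 tumors. Scr tumor 1 was above KO s1 tumors 1, 3 and 4, and the other scr tumors were below all of the KO s1 tumors. The log2 fold change was 0.18 (SE 0.106, interval −0.05 to 0.41, limma adjusted p = 0.205), and it was 0.27 (limma adjusted p = 0.0353) without scr tumor 1. Its 10 Mb window had a median log2 fold change of 0.31, above its own value, and after removal of window medians Txnrd1 was at −0.13 (limma adjusted p = 0.367). The log2 CPM of Txnrd1 minus Srxn1 within a tumor was 1.91 ± 0.13 (SD, n = 4) in the scr tumors and 1.81 ± 0.17 (SD, n = 4) in the KO s1 tumors (exact permutation p = 0.429).

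G6pdx (chrX:74409483-74428880, minus strand) encodes glucose-6-phosphate dehydrogenase, the entry enzyme of the pentose phosphate pathway and a main source of NADPH. It measured 6.71, 6.72, 6.65 and 6.54 log2 CPM in the scr tumors and 6.99, 7.06, 6.78 and 6.77 in the KO s1 tumors. All KO s1 tumors were above all scr tumors by a small margin. The log2 fold change was 0.24 (SE 0.091, interval 0.05 to 0.44, limma adjusted p = 0.0507), just outside the threshold, as Gclc at 0.0308 was just inside it. Without KO s1 tumor 4 it was called, at 0.29 (limma adjusted p = 0.0358). The exons of G6pdx overlap those of Ikbkg on the opposite strand, and the unstranded libraries cannot separate them.

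**Figure D2:**
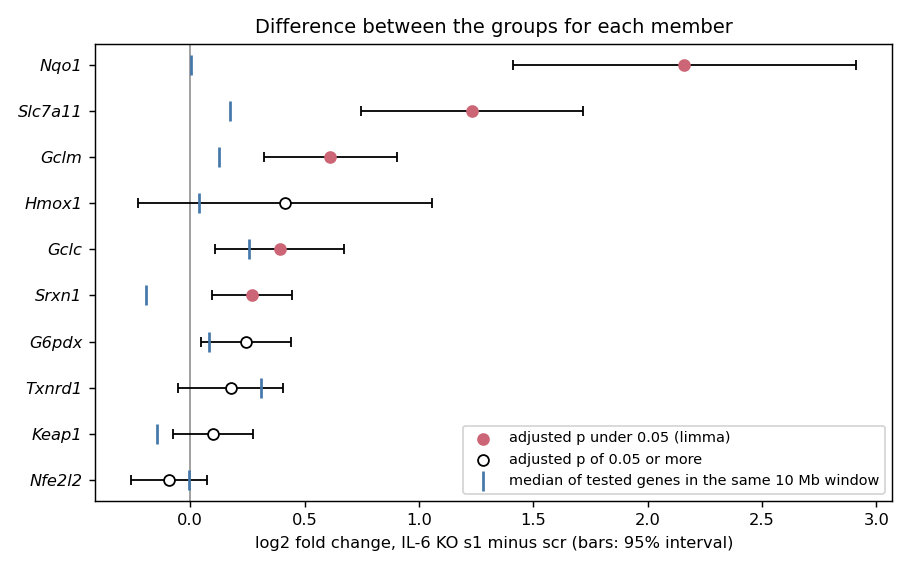
Log2 fold change of each gene, IL-6 KO s1 minus scr (x axis), with 95% intervals. Filled points have a limma adjusted p under 0.05, and blue ticks give the median of all tested genes in the same 10 Mb window. The tick lies near 0.26 for Gclc and at 0.31 for Txnrd1, beyond the point of Txnrd1, and near 0 for Nqo1.

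The members did not rise and fall together in single tumors in the same way for every gene. Scr tumor 1 was the highest scr tumor for 7 of the 10 genes (Nfe2l2, Keap1, Nqo1, Gclm, Srxn1, Txnrd1 and Slc7a11) and the lowest for 0. KO s1 tumor 2 was the highest KO s1 tumor for 6 of 10 (Hmox1, Gclc, Gclm, Txnrd1, Slc7a11 and G6pdx) and the lowest for Srxn1. KO s1 tumor 1 was the lowest of its group for 5 of 10, including Nqo1, Gclc, Gclm and Slc7a11. It was the highest for Nfe2l2, Keap1 and Srxn1. KO s1 tumor 4 was the lowest for 4 of 10. Without KO s1 tumor 1, which stood apart in the whole profile, none of the 10 calls changed.

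**Figure D3:**
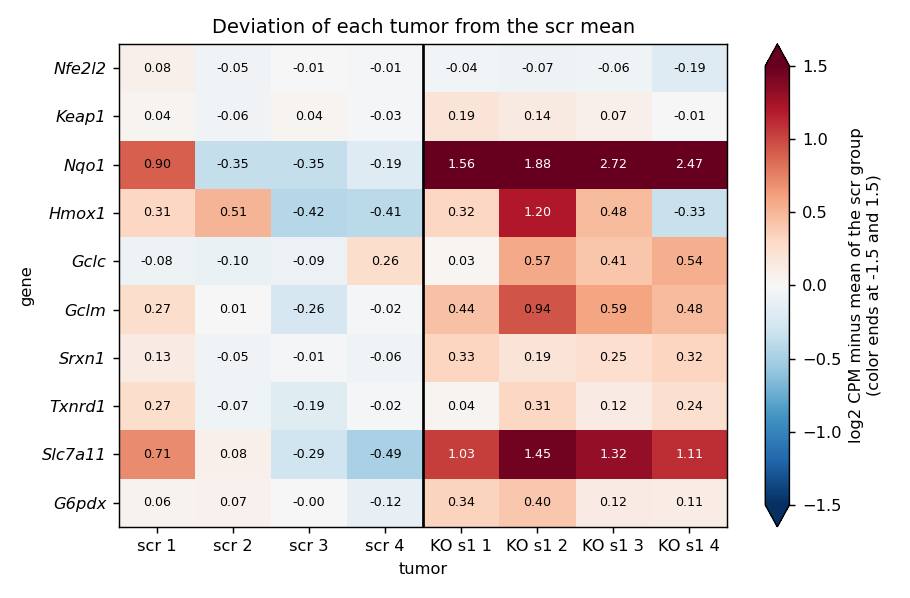
Log2 CPM of each gene (rows) in each tumor (columns) minus the mean of the scr group, with the value printed in each cell. Red is above the scr mean and blue below. Nqo1 and Slc7a11 are above the scr mean in scr tumor 1 as well as in all KO s1 tumors, and Hmox1 is below it in KO s1 tumor 4.

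Levels were compared between genes only after division by exonic length, as CPM per kb. In the scr tumors the order was Nfe2l2 at 87.3 ± 3.38, Hmox1 at 43.4 ± 14.4, Txnrd1 at 33.5 ± 4.65, G6pdx at 32.8 ± 1.9, Srxn1 at 22.3 ± 1.38, Gclc at 18.3 ± 2.34, Keap1 at 11.7 ± 0.388, Gclm at 7.15 ± 1.06, Slc7a11 at 0.936 ± 0.365 and Nqo1 at 0.902 ± 0.442 CPM per kb (SD, n = 4). The neighbors Hmox1, Txnrd1 and G6pdx overlapped in their ranges, as did Srxn1 with Gclc and Slc7a11 with Nqo1. In the KO s1 tumors Nfe2l2 led by its mean at 81.9 ± 3.66 CPM per kb, within the range of Hmox1 (33.0 to 95.7), and the lowest genes were Nqo1 at 3.94 ± 1.40 and Slc7a11 at 2.10 ± 0.279. The 2 genes with the largest fold changes were the 2 of lowest level in both groups.

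The other genes of the pathway were taken from 10 lists of 116 genes, of which 104 were tested. In the KO s1 tumors 50 were called higher and 10 lower, against 19.1% and 20.7% of all tested genes, and the median log2 fold change was 0.37. Calls in either direction were near the 39.8% of all tested genes in some lists. These were 6 of 12 NRF2 partners, 5 of 11 glutathione genes and 7 of 15 glutathione transferases. So were 6 of 12 thioredoxins and peroxiredoxins and 8 of 15 detoxifying enzymes and exporters. The lists had been drawn up with earlier results of these data known, so the counts are a description.

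Among 12 partners, competitors and turnover factors of NRF2, 4 were higher and 2 lower, with a median log2 fold change of 0.12. Nfe2l3, a related CNC factor, had a log2 fold change of 2.23 (SE 0.284, limma adjusted p = 0.000144), from 1.01, 1.93, 2.11 and 1.08 log2 CPM in the scr tumors to 4.01, 3.26, 4.13 and 3.64 in the KO s1 tumors. Nfe2l1, another of the CNC factors in the list, stood at −0.09 (limma adjusted p = 0.495). Btrc, a substrate adaptor of the ubiquitin ligase that acts on phosphorylated NRF2, rose by 0.49 (limma adjusted p = 0.00428), while Sqstm1, which encodes the KEAP1-binding autophagy receptor p62, was at 0.11 (limma adjusted p = 0.531). The genes that fell were named after their values were seen. They were Mafg, a small MAF partner of NRF2 (log2 fold change −0.48, limma adjusted p = 0.000682), and Cul3, the scaffold of the KEAP1 ligase (−0.45, limma adjusted p = 0.00101). With window medians removed Cul3 was at −0.09 (limma adjusted p = 0.416) and Btrc at 0.15 (limma adjusted p = 0.328).

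Of 11 tested genes of glutathione metabolism 4 were higher and 1 lower. Slc3a2, which encodes the heavy chain that carries xCT to the membrane, measured 7.16, 6.85, 6.66 and 6.68 log2 CPM in the scr tumors and 7.86, 8.09, 7.95 and 7.61 in the KO s1 tumors (log2 fold change 1.04, SE 0.127, limma adjusted p = 0.00011). Both chains of the transporter were higher, and Slc7a11 minus Slc3a2 within a tumor was −3.21 ± 0.31 and −3.02 ± 0.13 log2 CPM (SD, n = 4 each, exact permutation p = 0.343). Gpx4, which reduces lipid peroxides with glutathione, rose by 0.65 (limma adjusted p = 0.000725, and 0.34 with adjusted p = 0.032 when window medians were removed) and the secreted peroxidase Gpx3 by 0.78 (limma adjusted p = 0.00901). Gpx1, the abundant cytosolic peroxidase, was at −0.06 (limma adjusted p = 0.609). Ggct, which cleaves gamma-glutamyl amino acids, was the gene that fell (log2 fold change −0.73, limma adjusted p = 0.0267), and its call was lost without scr tumor 1, 2 or 4 or KO s1 tumor 2, 3 or 4 (limma adjusted p up to 0.0772).

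Of 15 tested glutathione transferases 6 were higher and 1 lower, with a median of 0.40. Gstm1, a cytosolic mu-class enzyme, had log2 CPM of 3.83, 3.63, 3.58 and 3.71 in the scr tumors and 4.80, 5.83, 5.63 and 5.55 in the KO s1 tumors (log2 fold change 1.76, limma adjusted p = 4.35e-05). Gstm7 rose by 2.59 from a low level (limma adjusted p = 0.000151, and by 1.68 on the log2(CPM + 1) scale) and the pi-class enzyme Gstp1 by 0.96 (limma adjusted p = 0.000145). Gsto1, the omega-class enzyme, was at 0.0047 (limma adjusted p = 0.975), and its sign turned when scr tumor 3 or 4 or KO s1 tumor 1 or 3 was left out, with values from −0.07 to 0.07. It was called lower at −0.33 (limma adjusted p = 0.0208) with window medians removed. Mgst3, a microsomal transferase, fell by 0.52 on the log2 scale (limma adjusted p = 0.00118) and was at −0.18 (limma adjusted p = 0.174) with window medians removed. Ggct and Mgst3 were named after their values were seen. Mu- and pi-class genes have near-identical copies, and how reads were divided among them is uncertain.

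Among thioredoxins and peroxiredoxins 6 of 12 genes were higher and 0 lower, with a median of 0.30. Txnip, an inhibitor of thioredoxin that is also induced by glucose, rose by 1.05 (limma adjusted p = 2.31e-05). Thioredoxin itself, Txn1, rose by 0.49 (limma adjusted p = 0.00165) and the mitochondrial reductase Txnrd2 by 0.52 (limma adjusted p = 0.00904). Prdx1, an abundant peroxide-reducing enzyme, was called at 0.25 (limma adjusted p = 0.0481), and that call was lost on omission of any tumor other than KO s1 tumor 4 (limma adjusted p up to 0.111). With window medians removed Txnrd2 was at 0.31 (limma adjusted p = 0.110).

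In the NADPH-supplying list 4 of 9 genes were higher and 2 lower, with a median of 0.45. Me1, the cytosolic malic enzyme, measured 4.71, 4.42, 4.07 and 4.49 log2 CPM in the scr tumors and 5.39, 6.39, 5.96 and 5.98 in the KO s1 tumors (log2 fold change 1.51, SE 0.192, limma adjusted p = 0.000142). Pgd, the enzyme 2 steps after G6pdx in the pentose phosphate pathway, rose by 0.47 (limma adjusted p = 0.00788). The mitochondrial Idh2 fell by 0.40 (limma adjusted p = 0.0023) and Rpe, an epimerase of the non-oxidative branch, fell by 0.34 (limma adjusted p = 0.0105). With window medians removed Idh2 was at −0.15 (limma adjusted p = 0.186) and Rpe, named after its value was seen, at 0.06 (limma adjusted p = 0.681).

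Beside Hmox1, 7 of 10 genes of heme breakdown and iron handling were higher and 2 lower. The ferritin chains store iron. Fth1 measured 10.3, 10.1, 9.59 and 9.57 log2 CPM in the scr tumors and 11.1, 11.8, 11.3 and 10.9 in the KO s1 tumors (log2 fold change 1.39, SE 0.209, limma adjusted p = 0.000407). It also lies in the 10 Mb window of Slc3a2, and with window medians removed it was at 1.06 and stayed called. Ftl1 rose by 0.82 (limma adjusted p = 0.00337). Both ferritin genes have processed pseudogenes, so their read assignment is uncertain. Tfrc, the transferrin receptor, fell by 0.67 (limma adjusted p = 0.00174), from 8.02, 8.28, 8.41 and 8.32 to 7.60, 7.57, 7.28 and 7.90, without overlap. Abcb6, a porphyrin transporter, was called lower at −0.49 (limma adjusted p = 0.0396), and the call was lost without scr tumor 1, 3 or 4 or KO s1 tumor 2, 3 or 4 (limma adjusted p up to 0.119) or the filter (0.0753). Abcb6 was at −0.12 (limma adjusted p = 0.649) with window medians removed. Slc40a1, the iron exporter ferroportin, was not called at −0.84 (limma adjusted p = 0.056), but was called without KO s1 tumor 1 (limma adjusted p = 0.0488) or KO s1 tumor 2 (limma adjusted p = 0.0114). It was also called with quantile normalization (−0.99, limma adjusted p = 0.0308) and with voom weights (limma adjusted p = 0.0474), and was at −0.42 (limma adjusted p = 0.358) with window medians removed. Tfrc, Abcb6 and Slc40a1 were chosen after their values were seen.

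**Figure D4:**
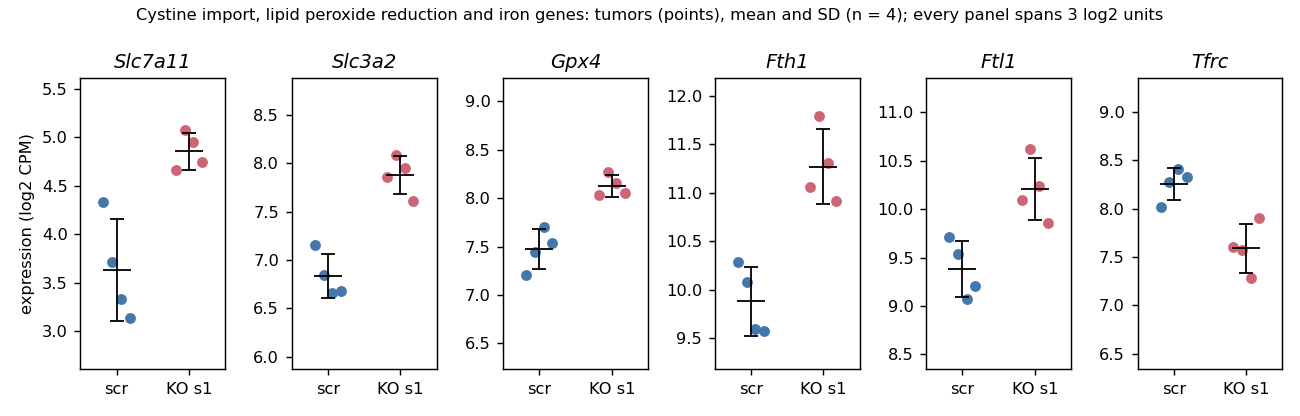
Log2 CPM (y axis) of both chains of the cystine transporter (Slc7a11, Slc3a2), of Gpx4, of both ferritin chains (Fth1, Ftl1) and of the transferrin receptor (Tfrc) in scr (blue) and IL-6 KO s1 (red) tumors. Points are tumors, bars the mean and SD (n = 4). The groups do not overlap in any panel, and Tfrc is the gene whose KO s1 tumors lie below the scr tumors.

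Among detoxifying enzymes and exporters 7 of 15 tested genes were higher and 1 lower. Aldh3a1, an aldehyde dehydrogenase, had −0.31, 1.09, 0.38 and 0.67 log2 CPM in the scr tumors and 6.36, 6.34, 6.09 and 5.70 in the KO s1 tumors (log2 fold change 5.66, SE 0.266, limma adjusted p = 1.78e-07). Adh7, an alcohol and retinol dehydrogenase, rose by 1.89 (limma adjusted p = 1.09e-06) and the microsomal epoxide hydrolase Ephx1 by 1.24 (limma adjusted p = 1.74e-06). Akr1b8, an aldo-keto reductase, went the other way at −1.14 (SE 0.168, limma adjusted p = 0.000356), with 7.87, 7.65, 7.63 and 7.66 log2 CPM in the scr tumors and 6.02, 6.50, 6.77 and 6.97 in the KO s1 tumors.

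Of 4 superoxide and peroxide scavengers 3 were higher. Cat, catalase, rose by 1.27 (limma adjusted p = 9.97e-06). Sod1 at 0.31 (limma adjusted p = 0.0368) and Sod2 at 0.27 (limma adjusted p = 0.0209) were called with all tumors. Sod1 lost the call without scr tumor 3 or 4 or KO s1 tumor 2, 3 or 4 (limma adjusted p up to 0.108), and Sod2 without scr tumor 3 or 4 or KO s1 tumor 3 (limma adjusted p up to 0.0699). Sod1 was at 0.098 (limma adjusted p = 0.524) with window medians removed, and it was not called without the filter (limma adjusted p = 0.0972) or the variance trend (limma adjusted p = 0.0694). Sod3, the secreted enzyme, was named after its value was seen and was at 0.59 (limma adjusted p = 0.0624), and it was called without scr tumor 1 (limma adjusted p = 0.0061) or KO s1 tumor 2 (limma adjusted p = 0.04).

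NADPH oxidases make superoxide, and of 8 tested subunits 4 were higher and 1 lower. Rac2, the GTPase of the phagocyte oxidase, rose by 1.86 (limma adjusted p = 8.74e-06). Its membrane subunits Cybb at 0.79 (limma adjusted p = 0.0877) and Cyba at 0.26 (limma adjusted p = 0.186) were not called, but Cybb was called without KO s1 tumor 2 (1.085, limma adjusted p = 0.0162) and Cyba without KO s1 tumor 4 (0.42, limma adjusted p = 0.0133). Without KO s1 tumor 1 Cybb was at 0.37 (limma adjusted p = 0.126) and Cyba at 0.15 (limma adjusted p = 0.418). Nox4, the constitutively active oxidase of non-phagocytic cells, fell by 2.21 (limma adjusted p = 6.99e-05), from 2.36, 2.86, 3.33 and 3.41 to 1.04, 0.63, 0.85 and 0.57 log2 CPM.

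Slc7a11 is also a target of ATF4, the factor of the amino acid response. In that response 5 of 8 tested genes were higher and 0 lower, with a median of 0.64. Atf4 rose by 0.40 (limma adjusted p = 0.00699), Ddit3, which encodes CHOP, by 0.92 (limma adjusted p = 0.00123), the glutathione-degrading enzyme Chac1 by 1.07 (limma adjusted p = 0.00686) and the serine synthesis enzyme Psat1 by 0.55 (limma adjusted p = 0.0135). With window medians removed Atf4 was at 0.21 (limma adjusted p = 0.119) and Psat1 at 0.23 (limma adjusted p = 0.281). What part ATF4 had in the Slc7a11 difference was not tested.

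**Figure D5:**
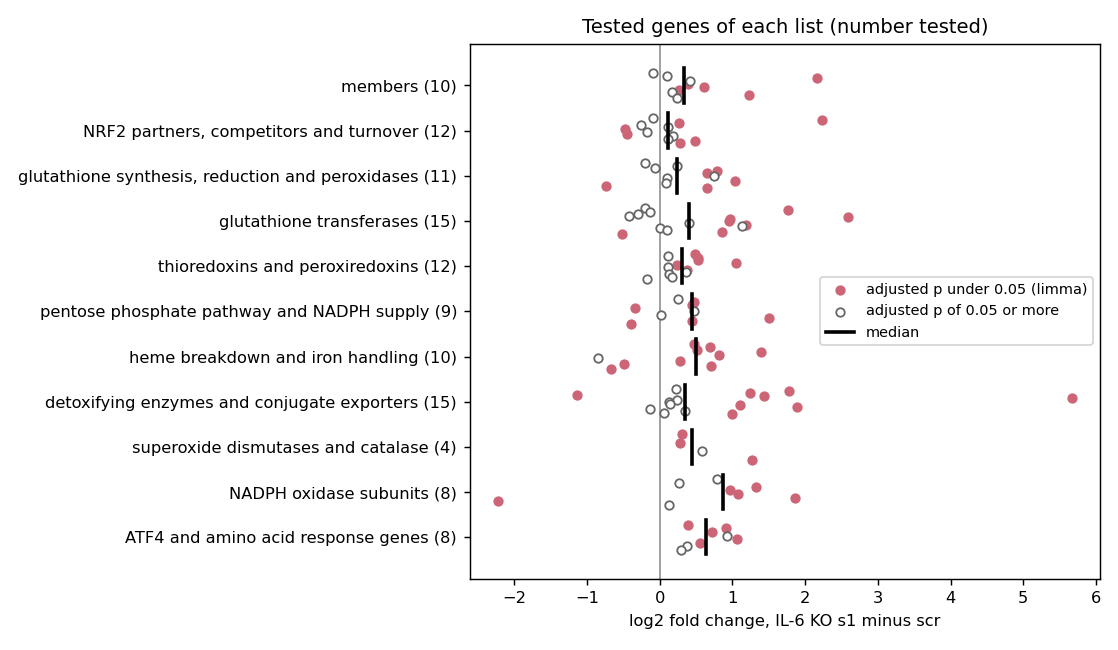
Log2 fold change, IL-6 KO s1 minus scr (x axis), of each tested gene of the members and the 10 pathway lists, with the number tested in brackets. Filled points have a limma adjusted p under 0.05, and black bars are medians. Medians lie right of 0 in every list, from 0.12 for the NRF2 partners to 0.88 for the NADPH oxidase subunits.

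Whole tumors hold host cells as well as C26 cells, and more cells of a type cannot be told apart from more RNA per cell. The summed level of 8 macrophage markers was 725 to 959 CPM in the scr tumors and 1497 to 2394 CPM in the KO s1 tumors, with none of the markers at 0 reads. Of the 7 tested, 6 were higher and Cd163 was lower. Macrophages express Hmox1, ferritin and the phagocyte oxidase, and the part of these cells in the member values was not tested. KO s1 tumor 1 had the highest macrophage sum. Among the members it was the lowest of its group for Nqo1, Gclc, Gclm, Txnrd1 and Slc7a11 and the highest for Nfe2l2, Keap1 and Srxn1. The sum of 4 T and NK cell markers was 0.12 to 0.927 CPM in the scr tumors and 5.27 to 14.9 CPM in the KO s1 tumors, and 3 of 3 tested were higher. Sums of 4 neutrophil markers (9.94 to 18.7 against 15.5 to 27.4 CPM), 4 erythroid markers (10.9 to 42.0 against 8.80 to 45.4), 5 fibroblast markers (3670 to 5535 against 3166 to 4693), 3 endothelial markers (85.0 to 129 against 94.0 to 115) and 3 skeletal muscle markers (3.90 to 119 against 14.8 to 243) overlapped between the groups, with the neutrophil marker Ly6g at 0 to 2 reads. Single markers in those lists were called even so, S100a8 (log2 fold change 0.97, limma adjusted p = 0.00282) and Lum (1.01, limma adjusted p = 0.00565) higher and Pdgfra (−0.78, limma adjusted p = 0.00135) lower. The 7 intestinal epithelial markers summed to 4.09 to 6.30 CPM in the scr tumors and 14.2 to 26.5 CPM in the KO s1 tumors, and Epcam, Krt8, Krt19 and Vil1 were too low to be tested. The 3 tested markers moved in different directions. Krt18 (log2 fold change 3.2, limma adjusted p = 3.02e-06) and Cdh1 (1.46, limma adjusted p = 0.00251) were higher in the KO s1 tumors, and Cdx2, an intestinal transcription factor, was lower, with 17 to 34 reads in the scr tumors and 0 to 1 in the KO s1 tumors (limma adjusted p = 4.18e-05).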

How the data were processed

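RNA-seq of 8 tumors was used, with groups and replicate numbers taken from the sample titles. The authors trimmed paired reads, aligned them to mm10 (GRCm38) with HISAT2, counted them on genes and deposited log2 CPM values from limma-voom. Per the submitters' processing notes bcl2fastq 2.17 made the reads, and other tool versions and the strand setting are not given in the sources used here. Whole reads were recovered by inverting the voom offsets (0.5 reads, and 1 on the library size) at each sample's lowest value. The distance allowed from a whole number was 0.01 times the square root of the reads, and at least 0.01. Abundant genes meet that limit in any case. The recovered reads on genes numbered 14158989 to 17048062 a tumor, which limits the precision of low genes such as Nqo1.

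The deposited values of 13262 genes reaching 1 CPM in 4 or more tumors were compared in R 4.3.3 with limma 3.58.1 (lmFit, eBayes with a trend), with no covariate, Benjamini-Hochberg adjustment and a threshold of 0.05. Within-tumor differences were compared by exact two-sided permutation tests. The fit was tested on simulated data. The members and lists were chosen with earlier results of these data known. Of each pathway list the 2 tested genes of highest mean and the 2 called genes of largest absolute fold change were named. Any other gene of the pathway lists is marked as named after its value was seen. Single cell type markers were also named after their values were seen. Positions came from a RefSeq gene annotation, and strands, exonic lengths and exon overlaps from the GENCODE annotation of GRCm38. Promoters came from RefSeq and were searched with Python 3.11.15. A 10 Mb window needed at least 25 tested genes. The alternatives were no filter, a replicate block, a minimum mean of 3 log2 CPM, re-centring by the median, quantile normalization, no variance trend, voom weights on recovered reads, log2(CPM + 1), removal of window medians, and omission of each tumor. Nothing states that tumors of a group came from separate cultures, so p-values measure the spread between tumors.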

Additional observations from a re-analysis of the deposited data

Results flagged for a closer look

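Within groups of 4 tumors, 7 of 102 sets of values held 1 tumor whose gap to the nearest other tumor, over the whole range, exceeded Dixon's 95% critical value, and chance gives about 5.1. Values are log2 CPM. Among the members, Nqo1 was at 1.28 in scr tumor 1 while the other scr tumors lay between 0.027 and 0.19, and Gclc was at 6.36 in scr tumor 4 with the others at 6.0 to 6.02. Among the pathway genes, scr tumor 1 stood high for Pgd at 7.85 (others 7.50 to 7.55) and for Akr1b8 at 7.87 (others 7.63 to 7.66). Gpx3 stood high in KO s1 tumor 1 at 6.17 (others 5.49 to 5.55) and Txn1 in KO s1 tumor 2 at 9.21 (others 8.95 to 8.98). Sod2 stood low in KO s1 tumor 4 at 6.17 (others 6.29 to 6.32).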

How the results depend on the processing

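The members called higher numbered 5, between 4 and 6 under the 9 settings other than omission and 4 to 5 with 1 tumor omitted, and 0 were called lower in any of them. Nqo1 could not be tested under the minimum mean of 3 log2 CPM. Nqo1 elsewhere, and Slc7a11 and Gclm throughout, stayed called. Gclc also lost its call without the filter (limma adjusted p = 0.0859) and without the variance trend (0.0626), and G6pdx gained one with quantile normalization (0.0192), re-centring (0.0436), log2(CPM + 1) (0.0496) and the replicate block (0.0341). Under the block Slc40a1 was also called (0.00843) and Prdx1 was not (0.0557). The correlations of same-numbered tumors were −0.0593 to 0.057, so a pairing by number was not detected. The sample titles do not say what the numbers stand for. With the replicate block 2477 genes were called higher and 2688 lower.

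With window medians removed Txnrd1 turned to −0.13, Rpe to 0.055, Nfe2l1 to 0.11, Gpx1 to 0.19 and Gsto1 to −0.33, with Gsto1 called (limma adjusted p = 0.0208) and Keap1 called (0.24, limma adjusted p = 0.0373). Txnrd1 minus Srxn1 then differed by −0.60 (exact permutation p = 0.0286), and 6 pathway genes were called lower in place of 10. The cause was not tested. Hmox1 minus Nqo1 was −1.16 on the log2(CPM + 1) scale. Gsto1 lay between −0.0703 and 0.0734 with 1 tumor omitted. Of the alternative values of members, 151 kept direction and side of the threshold and 18 did not, and of the other named genes 698 and 62. With 1 tumor omitted 2023 to 2540 genes were called higher and 2193 to 2674 lower. Quantile normalization and re-centring moved the median of all genes by −0.00791 and 0.00752.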
